A study of Homo sapiens with 24 samples.

Results

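The 9 genes described here are interleukin-1 family ligands (IL1A, IL1B, IL18, IL36G), the antagonists IL1RN and IL18BP, and the receptor chains IL1R1, IL1R2 and IL1RAP. They were taken by gene symbol, with earlier results of these data known, and each matched 1 entry among the 38735 named genes. All 9 had a mean of at least 10 normalized counts over the libraries and were among the 13900 genes tested. The cells were THP-1, an established human monocytic leukaemia line, here a macrophage model made with the phorbol ester PMA (100 nM for 24 h). Control cells then had medium alone for 24 h, and DCVC cells had 5 µM DCVC for that time. DCVC is a cysteine conjugate to which the solvent trichloroethylene is metabolised, and the dose is that of the series' design text. LPS cells had medium for 24 h and then 100 ng/mL lipopolysaccharide, a bacterial membrane component sensed by TLR4, for 4 h, and DCVC_LPS cells had the same LPS exposure after DCVC and a change of medium. All groups shared the PMA step, and each had 6 libraries with the letters A to F. According to its title, the study asked whether DCVC inhibits inflammatory transcription set off by LPS. Whether a letter stands for its own culture is not in the labels, and the p-values thus cover only how far these libraries vary, which may be technical.

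Interleukin-1 alpha and beta are made as precursors and act through IL1R1, which recruits the shared chain IL1RAP and the adaptor MYD88 to activate NF-kB. IL1B and IL18 precursors are cut by caspase-1 in inflammasomes, and IL1B transcription in macrophages is itself switched on by TLR4. The pathway has several brakes: IL1RN encodes a receptor antagonist that occupies IL1R1 without signalling, IL1R2 is a decoy that lacks a signalling domain, and IL18BP is a secreted protein that traps IL-18. IL36G encodes an epithelial and myeloid ligand of the IL-36 receptor, which also uses IL1RAP.

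Each library had between 18478618 and 30107819 reads in genes with a name. Levels are given as the deposited normalized counts, with the lowest, median and highest of 6 libraries. A change is a difference of group means on log2(normalized count + 1), with its standard error (SE) and the p from limma, adjusted over all genes tested. Raised and lowered mean an adjusted p under 0.05. All 10 macrophage markers had a mean of at least 10, from CD68 at 14.4 to CSF1R, the receptor of the macrophage growth factor, at 19247. The sum of the 10 spanned 71265 to 85590.0 in Control and 50072 to 56961 in DCVC, against 39932 to 43393 in LPS and 37944 to 41927 in DCVC_LPS. Single markers went both ways within it. From Control to DCVC the mean of LYZ went from 1455 to 3223 and that of CD14 from 2520 to 289. Of the markers of other cells, 0 of 4 epithelial, 0 of 3 T cell, 0 of 3 B cell and 0 of 3 erythroid ones reached a mean of 10, and HBB and ALAS2 were at 0 in every library. Of 4 fibroblast markers COL1A1 and PDGFRB reached it, and the 4 summed to 48.7 to 69.1 in Control and 128 to 160.2 in DCVC, against 41.4 to 71.2 in LPS and 57.2 to 92.5 in DCVC_LPS. Of 3 endothelial markers VWF and KDR reached it, with sums of 159 to 249.99 and 439.5 to 631, then 110.0 to 132 and 351 to 508, in the same order of groups. These sums also hold markers that went opposite ways from Control to DCVC. The mean of PDGFRB went from 25.1 to 127 and that of COL1A1 from 30.8 to 20.9. For VWF it went from 196 to 531 and for CDH5 from 7.52 to 1.47. The part of these markers in the results was not tested. In such bulk samples, fewer expressing cells and less RNA per cell cannot be told apart. Libraries E and F stood apart from A to D for several of the 9 genes, so values are also given within the letters A/B, C/D and E/F. The scaling matters too: with every library rescaled to the same total, the median over all genes tested shifted (log2) by -0.47 for LPS against Control, 0.25 for DCVC against Control and 0.43 for DCVC_LPS against LPS.

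With LPS alone, 8 of the 9 genes rose and 1, IL18BP, fell, where 37.8% of all tested genes rose and 40.6% fell. IL36G, 1 of the 8, had a mean of 0.444 normalized counts in Control and 1.74 in DCVC. It passed the filter on the mean only through the groups with LPS, so its rise with LPS is no separate support. The median log2 change of the 9 was 2.95 against -0.03 over all tested genes. With DCVC alone the family split: IL1A and IL1RAP rose, IL1B, IL1RN, IL1R1 and IL1R2 fell, and 3 did not pass the test. Of all tested genes 27.5% rose and 32.2% fell in that comparison, and the medians were -0.36 for the 9 and -0.03 for all. In LPS-stimulated cells, 7 of the 9 were lower after DCVC, IL18BP was higher and IL1R2 did not pass the test, beside 39.4% of all tested genes lower and 33.3% higher. The medians were -1.62 and -0.07. LPS given after DCVC raised 6 of the 9 against DCVC alone and lowered 0 by limma (0 also at an unadjusted p under 0.05, by edgeR and by DESeq2), beside 29.9% raised and 32.2% lowered among all tested genes, with medians of 2.56 and -0.03. The interaction, which is the LPS change after DCVC minus that without it, was negative past the threshold for 5 of the 9 and positive for 0 by limma (0 also at an unadjusted p under 0.05, by edgeR and by DESeq2), beside 23.7% and 22.0% of all tested genes, with medians of -0.95 and 0.02. These comparisons share libraries: LPS and DCVC are both set against Control, and DCVC_LPS against both LPS and DCVC.

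**Figure D1:**
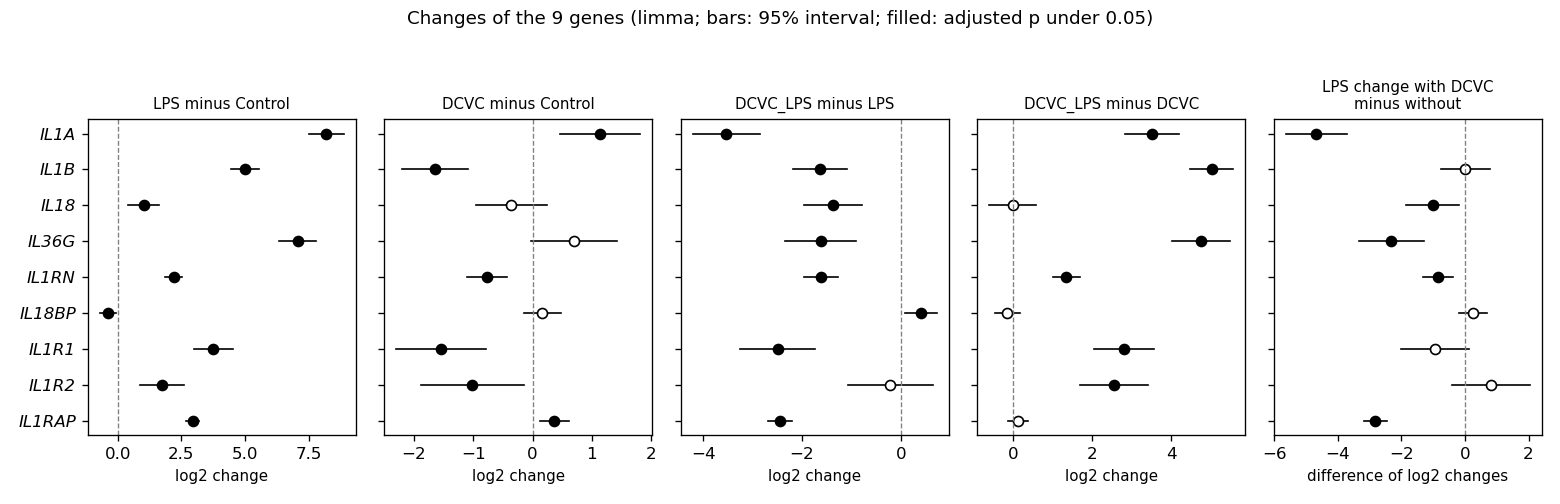
Log2 change of each of the 9 genes in the 5 comparisons, with 95% intervals from the limma fit and filled points for an adjusted p under 0.05. LPS raised 8 genes, DCVC moved the family both ways, and DCVC_LPS lay below LPS for 7.

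The 6 libraries of 2 groups did not overlap for 6 of the 9 genes in LPS against Control, for 7 in DCVC_LPS against LPS and for 6 in DCVC_LPS against DCVC, beside 56.8%, 51.7% and 45.1% of all tested genes. In DCVC against Control 0 of the 9 genes had groups that did not overlap, beside 36.5% of all tested genes. By letter, IL1A, IL1RAP and IL18BP were higher and IL1B, IL1RN, IL1R1 and IL1R2 lower in DCVC than in Control in 6 of 6 same-letter pairs. IL18 and IL36G moved both ways. The share of all tested genes that moved one way in 6 of 6 pairs was not computed, so no count is read from this. The same holds where 6 of 6 letters are given for single genes below, which is a description without a test.

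**Figure D2:**
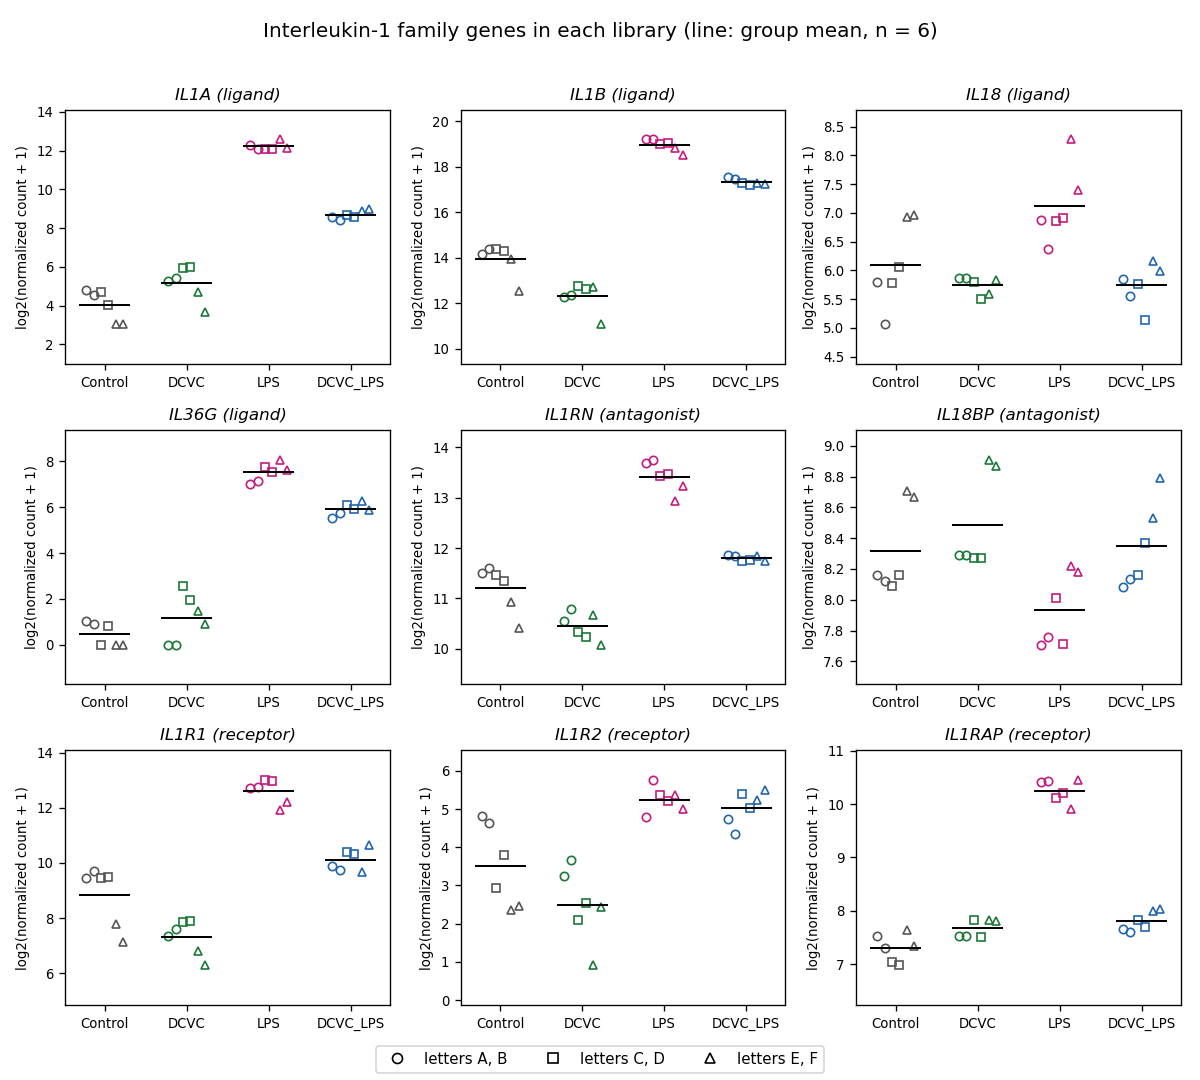
Level of each gene in every library as log2(normalized count + 1), by group, with a line at the mean of 6. Circles are letters A and B, squares C and D, triangles E and F. The triangles of Control lie below the other Control libraries for IL1A, IL1B, IL1RN, IL1R1 and IL1R2 and above them for IL18 and IL18BP.

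IL1B (chromosome 2, 112829751 to 112836903, minus strand on GRCh38), the main secreted IL-1 of macrophages, was the most abundant of the 9. Its lowest, median and highest normalized counts were 5906, 19341 and 21533 in Control and 379302, 529688 and 610160.0 in LPS. The groups did not overlap, and the log2 change with LPS was 5.01 ± 0.27 (adjusted p = 9.15e-15). IL1B alone took 0.0811 ± 0.0273% (SD, n = 6) of the reads in named genes in Control and 1.76 ± 0.270% in LPS. In DCVC the values were 2164, 5792 and 7049.9, lower than Control in all 6 letters although Control F, at 5906, lay among the DCVC libraries (log2 change -1.65 ± 0.27, adjusted p = 1.12e-05). DCVC_LPS stood at 150459, 159068 and 191179, below every LPS library (log2 change -1.63 ± 0.27, adjusted p = 6.59e-06). IL1B was thus lower with DCVC both without and with LPS. The LPS change after DCVC was 5.02 ± 0.27, and the interaction was 0.01 ± 0.38 (adjusted p = 0.984, 95% interval -0.77 to 0.79). Within E/F alone, with 2 libraries a group, the DCVC changes kept their direction without passing the threshold, at -1.34 (adjusted p = 0.0791) against Control and -1.41 (adjusted p = 0.0505) in LPS cells.

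IL1A (chromosome 2, 112773915 to 112784590, minus strand), whose product is active also as a precursor and acts as an alarm signal of damaged cells, moved one way with DCVC alone and the other way with DCVC before LPS. It was low without LPS, with 7.24, 18.7 and 27.3 normalized counts in Control, and reached 4334, 4495 and 6178 in LPS. That is a log2 change of 8.19 ± 0.33 (adjusted p = 3.99e-17), with no overlap between the groups. DCVC alone raised IL1A, to 11.6, 40.2 and 62.4 (log2 change 1.14 ± 0.33, adjusted p = 0.00455), in 6 of 6 letters and with overlap between the groups. The change was 0.68 within A/B, 1.6 within C/D and 1.13 within E/F. In LPS-stimulated cells the direction was the opposite: DCVC_LPS held 343, 394 and 499.9, below every LPS library, at a log2 change of -3.54 ± 0.33 (adjusted p = 8.43e-10). LPS after DCVC raised IL1A by 3.52 ± 0.33 on the log2 scale, so that the interaction of -4.67 ± 0.46 (adjusted p = 2.24e-08) was the furthest from 0 among the 9 genes.

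The bases before the transcription starts of IL1B, IL1A and the antagonist IL1RN, all on chromosome 2, are shown. These 3 genes all rose with LPS and moved in different directions with DCVC alone, IL1A up and the other 2 down. The bases shown are the 250 before a RefSeq start on GRCh38.p14, 5′ to 3′ in the direction of the gene, with capitals for matches to a motif on either strand.
IL1B, chr2:112836780-112837029, minus strand: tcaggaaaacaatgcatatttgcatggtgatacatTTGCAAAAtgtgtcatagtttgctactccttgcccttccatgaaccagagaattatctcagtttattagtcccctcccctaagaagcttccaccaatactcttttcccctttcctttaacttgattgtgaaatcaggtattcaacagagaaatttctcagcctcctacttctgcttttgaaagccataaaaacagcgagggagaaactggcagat
IL1A, the second of 2 listed starts, chr2:112784401-112784650, minus strand: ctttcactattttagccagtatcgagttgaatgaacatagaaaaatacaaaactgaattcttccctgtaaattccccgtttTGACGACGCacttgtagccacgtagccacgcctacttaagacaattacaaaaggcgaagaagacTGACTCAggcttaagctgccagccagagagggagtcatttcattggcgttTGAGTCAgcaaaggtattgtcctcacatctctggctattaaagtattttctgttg
IL1RN, the first of 3 listed starts, chr2:113117721-113117970, plus strand: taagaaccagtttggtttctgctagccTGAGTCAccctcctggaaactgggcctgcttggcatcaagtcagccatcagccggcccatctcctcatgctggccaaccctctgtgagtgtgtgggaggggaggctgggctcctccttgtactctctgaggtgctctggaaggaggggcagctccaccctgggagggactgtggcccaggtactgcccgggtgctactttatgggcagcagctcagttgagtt
The motifs searched were the AP-1 site TGANTCA, which reads the same on both strands, the antioxidant response element core TGACNNNGC, the C/EBP site TTGCNNAA and the NF-kB consensus kappaB. They are found in 6.57%, 10.9%, 9.05% and 9.96% of the 35116 RefSeq windows of the same length. The IL1A window holds 2 AP-1 matches, whose first bases lie 105 and 55 bases before the start, and 1 antioxidant response element match 169 bases before it. The IL1RN window holds 1 AP-1 match at 223 bases, and the IL1B window 1 C/EBP match at 215 bases. The windows shown are those with the most matches of each gene: the other IL1A start has 1 AP-1 and 1 antioxidant response element match, and the other 2 IL1RN starts have 0 matches to any of the motifs. The shares above are of single windows, without such a choice. Which start these cells used was not tested. The kappaB consensus has no match in these 3 windows, which says only that those letters are not there. Promoter entries were found for 8 of the 9 genes, all but IL18, and the only kappaB match among their 18 windows was in IL1R2, 125 bases before its second listed start. Such matches are letters, and no binding was measured.

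IL36G (chromosome 2, 112973203 to 112985665, plus strand) had almost no reads without LPS. The 6 Control libraries together held 3 reads and the 6 DCVC libraries 12, against 887 in LPS. The ratio of LPS to Control was 408, with a 95% counting interval (exact Clopper-Pearson) of 139 to 1984 that covers counting error only. The fitted log2 changes with LPS were 7.07 ± 0.35 without DCVC (adjusted p = 2.29e-15) and 4.76 ± 0.35 after it (adjusted p = 1.68e-11), or 4.51 and 2.81 with a pseudocount of 8, since the unstimulated level is close to 0. LPS libraries ran from 128 over a median of 191 to 269.6 normalized counts, and DCVC_LPS libraries from 45.7 over 58.6 to 75.6. The groups did not overlap, and the log2 change in LPS cells with DCVC was -1.62 ± 0.35 (adjusted p = 0.000214). DCVC alone gave 0.69 ± 0.35 (adjusted p = 0.091), with 0 reads in DCVC A and in DCVC B; without DCVC A it was 0.92 (adjusted p = 0.023) and without DCVC B 0.92 (adjusted p = 0.023). It was -0.96 within A/B (adjusted p = 0.0723), 1.85 within C/D (adjusted p = 0.000592) and 1.2 within E/F (adjusted p = 0.037). The interaction was -2.31 ± 0.49 (adjusted p = 0.000493), but -0.48 (adjusted p = 0.57) within A/B, -3.49 within C/D and -2.98 within E/F, and -3.61 by DESeq2. It rests on unstimulated levels of a few reads.

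IL18 (chromosome 11, 112143251 to 112164117, minus strand), the interferon-gamma-inducing cytokine, was low, and its level differed between the letters. Control libraries A to D held 32.4 to 65.5 normalized counts, whereas Control E and F held 121 and 124. In LPS the values were 81.3, 118 and 309.7, higher than Control in 6 of 6 letters with overlapping groups (log2 change 1.02 ± 0.29, adjusted p = 0.00257). Under equal totals this was 0.54 and no longer passed (adjusted p = 0.0908). The 6 DCVC libraries were close together, at 44.2, 55.3 and 57.6, and the change from Control was -0.36 ± 0.29 (adjusted p = 0.291, 95% interval -0.95 to 0.24). The direction differed between letters, a difference that was not tested: the change was 0.44 within A/B (adjusted p = 0.177), -0.27 within C/D (adjusted p = 0.314) and -1.23 within E/F (adjusted p = 0.00812). After DCVC, LPS did not move IL18 past the threshold: DCVC_LPS held 34.2, 55.1 and 70.5, a log2 change of 0.00 ± 0.29 from DCVC (95% interval -0.59 to 0.60). Every DCVC_LPS library lay below every LPS library (log2 change -1.37 ± 0.29, adjusted p = 0.000157, and -0.91 within A/B). The interaction of -1.01 ± 0.41 (adjusted p = 0.0447) was close to the threshold. It did not pass with no filter on low values (adjusted p = 0.0727), under equal totals (-0.83, adjusted p = 0.1) or within E/F (-0.54, adjusted p = 0.365). It also lost the call when any 1 of 14 libraries was left out, all but Control E and F, DCVC D and E, LPS A to D and DCVC_LPS E and F, with changes from -0.78 without LPS E to -1.03 without DCVC_LPS A.

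Among the antagonists, IL1RN (chromosome 2, 113107214 to 113134016, plus strand) rose with LPS and was lower with DCVC in unstimulated and in stimulated cells. Control held 1364, 2724 and 3119 normalized counts and LPS 7774, 11192 and 13799.9, with no overlap (log2 change 2.20 ± 0.16, adjusted p = 6.75e-12). DCVC held 1085, 1394 and 1763, lower in 6 of 6 letters with overlapping groups (log2 change -0.77 ± 0.16, adjusted p = 0.00031). Within E/F the DCVC change was -0.28 (adjusted p = 0.322), against -0.89 within A/B and -1.12 within C/D. In DCVC_LPS the 6 values lay between 3405 and 3708, below every LPS library (log2 change -1.61 ± 0.16, adjusted p = 4.08e-09) and above every Control library. LPS after DCVC raised IL1RN by 1.35 ± 0.16, and the interaction was -0.85 ± 0.23 (adjusted p = 0.00433).

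IL18BP (chromosome 11, 71998541 to 72005715, plus strand) was the 1 gene of the 9 that fell with LPS and was higher with DCVC in stimulated cells. Its values were 271, 286 and 417 in Control and 307, 312 and 480.0 in DCVC, against 208, 237 and 298 in LPS and 270.3, 307 and 443 in DCVC_LPS. Groups overlapped in every comparison. Same-letter libraries fell with LPS in 6 of 6 letters and were higher in DCVC_LPS than in LPS in 6 of 6, a description without a test. The fall with LPS was -0.39 ± 0.15 on the log2 scale (adjusted p = 0.0259), and it lost the call without any 1 of Control E, Control F, LPS A, LPS B and LPS D. In that order it was then -0.31, -0.31, -0.34, -0.35 and -0.34, with adjusted p between 0.054 and 0.0764. Within C/D it was -0.26 (adjusted p = 0.0554) and under equal totals -0.86. The rise in LPS cells with DCVC was 0.41 ± 0.15 (adjusted p = 0.019), or 0.84 under equal totals and 0.32 (adjusted p = 0.0613) without DCVC_LPS F. With the replicate letter as a block, as the letters pair the libraries in part, DCVC alone also raised IL18BP. The change was the same 0.17 (adjusted p = 0.0379 with the block, 0.364 without). The interaction of 0.25 also passed (adjusted p = 0.0347 with the block, 0.375 without). The change with LPS after DCVC was -0.14 ± 0.15 (adjusted p = 0.45), and -0.43 (adjusted p = 0.0207) under equal totals, where DCVC alone gave 0.41 (adjusted p = 0.0278). Exons of IL18BP overlap exons of NUMA1 on the opposite strand, and the strand setting of the counting is not given in the sources used here, so its values are uncertain. NUMA1 averaged 3505 normalized counts in Control and 3582 in DCVC, against 1361 in LPS and 2375 in DCVC_LPS, and the part of its reads in IL18BP was not tested.

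Of the receptor chains, IL1R1 (chromosome 2, 102064544 to 102179874, plus strand), which binds IL-1 and signals, rose with LPS from 138, 703 and 832 to 3868, 6802 and 8220.0 normalized counts without overlap (log2 change 3.76 ± 0.37, adjusted p = 1.18e-09). Control libraries A to D stood at 699.8 to 832, and E and F lower, at 219 and 138. DCVC held 77.6, 177 and 239, lower than Control in 6 of 6 letters (log2 change -1.54 ± 0.37, adjusted p = 0.000908). That change was -2.11 within A/B, -1.61 within C/D and -0.90 within E/F (adjusted p = 0.0541 for E/F). DCVC_LPS reached 821, 1110.5 and 1587, below every LPS library (log2 change -2.49 ± 0.37, adjusted p = 1.64e-06) and with its lowest library, E, still above all but 1 Control library. LPS after DCVC raised IL1R1 by 2.81 ± 0.37. The interaction was -0.95 ± 0.52 without the block (adjusted p = 0.143). It passed with the replicate block (adjusted p = 0.0362), within A/B and within C/D, but not within E/F. It also passed within A to D (change -0.93, adjusted p = 0.00133), a choice made after seeing the data.

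IL1RAP (chromosome 3, 190514051 to 190659750, plus strand), the accessory chain without which IL1R1 cannot signal, rose with LPS in cells without DCVC, and its change with LPS after DCVC did not pass the test. Control held 126, 159 and 199 normalized counts and LPS 954, 1276 and 1398, with no overlap (log2 change 2.95 ± 0.12, adjusted p = 4.45e-17). DCVC held 182, 204 and 226 and DCVC_LPS 194, 217 and 263. These last 2 groups overlapped, and the LPS change after DCVC was 0.13 ± 0.12 (adjusted p = 0.344, 95% interval -0.11 to 0.38), although DCVC_LPS was the higher in 6 of 6 letters. The interaction was -2.81 ± 0.17 (adjusted p = 1.1e-11), and DCVC_LPS lay -2.45 ± 0.12 from LPS (adjusted p = 9.26e-15). DCVC alone raised IL1RAP by 0.37 ± 0.12 (adjusted p = 0.0102), a change of 0.12 within A/B (adjusted p = 0.374), 0.66 within C/D (adjusted p = 0.000137) and 0.32 within E/F (adjusted p = 0.197), and of 0.62 under equal totals. A long noncoding RNA of the annotation, AC108747.1, shares exon bases with IL1RAP on the same strand, so the reads there are uncertain.

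IL1R2 (chromosome 2, 101991844 to 102028544, plus strand), the decoy receptor, was the lowest of the receptor chains, with 87 reads in Control and 37 in DCVC, each a sum of 6 libraries. Control held 4.17, 9.78 and 27.3 normalized counts and LPS 26.8, 37.9 and 53.2, a rise in 5 of 6 letters (log2 change 1.74 ± 0.42, adjusted p = 0.0006). Within A/B it was 0.55 (adjusted p = 0.198), within C/D 1.92 and within E/F 2.77. DCVC_LPS held 19.4, 34.2 and 44.4, overlapping LPS, and the change was -0.21 ± 0.42 (adjusted p = 0.666, 95% interval -1.08 to 0.66). Against DCVC alone, at 0.889, 4.63 and 11.7, LPS raised it by 2.56 ± 0.42 (adjusted p = 1.09e-05) with no overlap, by 1.08 within A/B and by 1.61 with a pseudocount of 8. The fall with DCVC alone, -1.02 ± 0.42 (adjusted p = 0.0401), was lost without any 1 of Control A, B or D or DCVC C, D, E or F, with values from -1.03 without DCVC D to -0.71 without DCVC E. It did not pass either with a pseudocount of 8 (-0.56, adjusted p = 0.0574), with no filter (adjusted p = 0.0645), under equal totals (-0.83, adjusted p = 0.0927), within E/F (-0.73, adjusted p = 0.288) or in a fit of these groups alone (adjusted p = 0.113). The interaction was 0.81 ± 0.60 (adjusted p = 0.28, 95% interval -0.42 to 2.04).

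**Figure D3:**
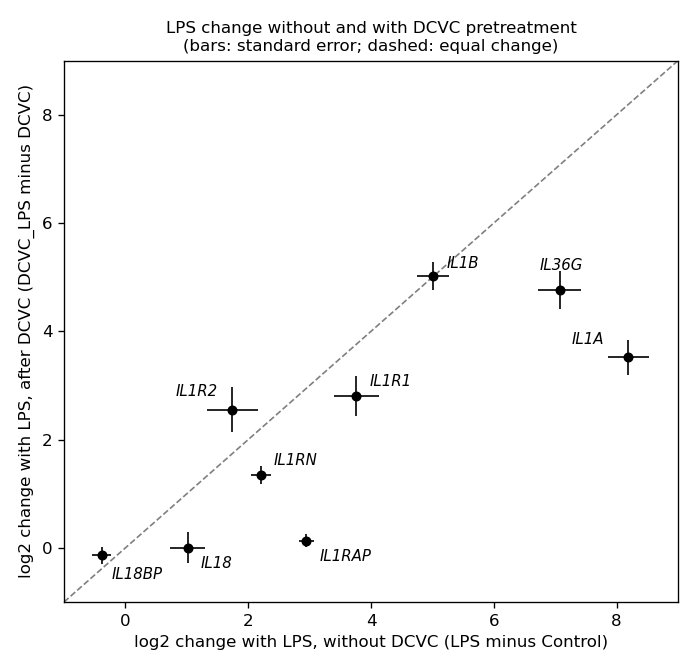
LPS change of each gene without DCVC (horizontal axis, log2) against the LPS change after DCVC (vertical axis, log2), with standard errors and a dashed line of equal change. The 2 axes use separate libraries. IL1B lies on the line at 5.01 and 5.02, while IL1A lies at 8.19 and 3.52 and IL1RAP at 2.95 and 0.13.

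Ratios of 2 genes within a library do not depend on the scaling between libraries and are given as descriptions without a test. IL1RN to IL1B, the antagonist against the agonist, had a lowest, median and highest ratio of 0.122, 0.139 and 0.231 in Control and 0.184, 0.272 and 0.501 in DCVC. With LPS it was 0.0169, 0.0214 and 0.0252, and DCVC_LPS lay inside that range at 0.0194, 0.0219 and 0.0231. Both transcripts were lower with DCVC in stimulated cells, and their proportion stayed within that of LPS alone. IL1RN to IL1A differed: it was 106, 156 and 266 in Control and 19.3, 40.5 and 93.5 in DCVC, against 1.26, 2.54 and 3.14 in LPS and 6.81, 8.78 and 10.7 in DCVC_LPS. The 4 ranges do not touch: the ratio was lower in DCVC than in Control, and higher in DCVC_LPS than in LPS. IL1B to IL1A went from 681, 898 and 2187 in Control to 102, 126 and 274 in DCVC, and from 74.5, 119 and 139 in LPS to 308, 392 and 526 in DCVC_LPS.

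IL18BP to IL18 was 3.28, 4.69 and 8.55 in Control and 5.41, 6.32 and 10.2 in DCVC, against 0.961, 1.77 and 2.65 in LPS and 4.77, 5.70 and 9.63 in DCVC_LPS. The LPS libraries lie below those of the other groups, and DCVC_LPS lies in the range of the unstimulated groups. The decoy IL1R2 against the signalling IL1R1 stood at 0.00396, 0.00577 and 0.0104 in LPS and 0.0228, 0.0275 and 0.0448 in DCVC_LPS, without overlap, and overlapped between Control and DCVC.

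**Figure D4:**
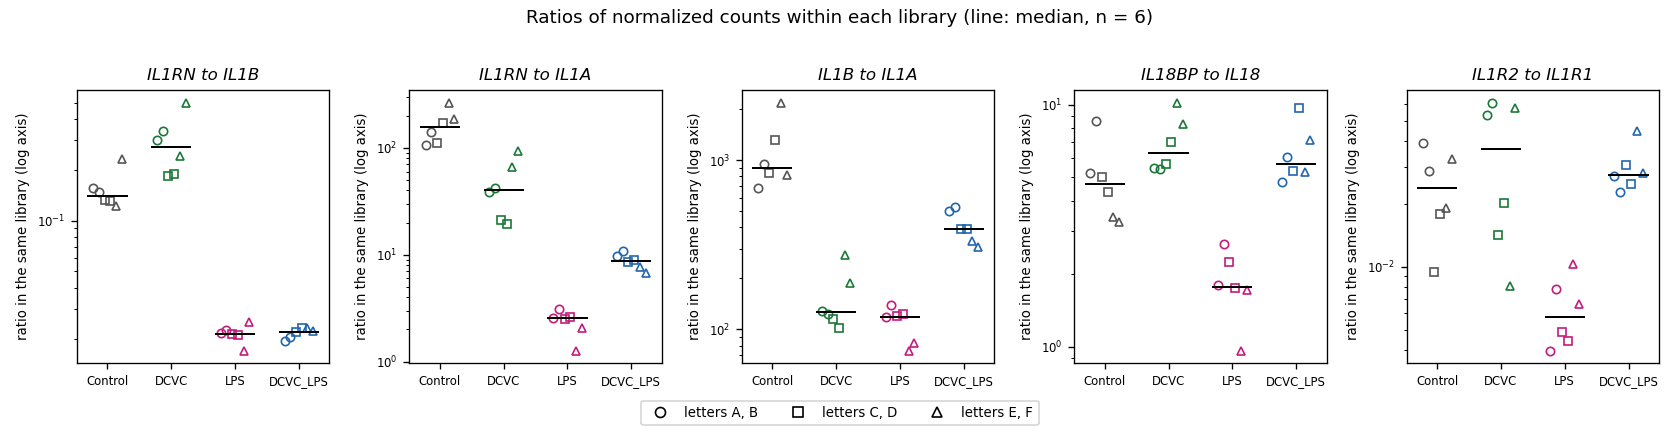
Ratio of normalized counts of 2 genes in the same library, on a log axis, by group, with a line at the median of 6 and symbols by letter. LPS and DCVC_LPS share 1 range for IL1RN to IL1B and are apart for the other 4 ratios.

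To compare genes with each other, mean normalized counts were divided by the kilobases of exon in GENCODE 29. In Control the order per kilobase was IL1B at 5558 ± 1906 (SD, n = 6), IL1RN at 755 ± 206, then IL1R1 at 78.0 ± 41.6 and IL18BP at 74.9 ± 15.8, which differ by less than their spread. IL18, IL1RAP, IL1A and IL1R2 followed at 28.6, 13.8, 8.23 and 4.31, and IL36G was last at 0.322. With LPS the order per kilobase became IL1B (167713 ± 28613), IL1RN (3409 ± 684), IL1A (2276 ± 338) and IL1R1 (905 ± 250.4). IL1A thus moved from seventh place to the third. IL36G (137 ± 37.2) and IL1RAP (106 ± 15.7) then stood within 1 SD of each other, as did IL18 (57.7 ± 31.3) and IL18BP (56.9 ± 9.47), and IL1R2 was last. The chain needed for signalling, IL1RAP, was lower per kilobase than IL1R1 in Control, LPS and DCVC_LPS, while in DCVC the means of 17.7 ± 1.98 and 23.7 ± 9.12 differed by less than their spread.

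For 6 of the 9 genes, the genes most like each across the 24 libraries were named by Pearson's r of log2(normalized count + 1), a description in which the 24 points share 4 treatments, 6 letters and their scaling. For IL1B they were ATP2B1 (0.994), FMNL3 (0.991) and ICAM1 (0.988), among them ICAM1, an adhesion molecule. For IL1A they were PIP5K1A (0.991), TMEM39A (0.989) and PTPN1 (0.986). For IL1RN they were MRTO4 (0.987), PMM2 (0.987) and SLC39A14 (0.986), and for IL1R1 SLCO3A1 (0.984), GLIS3 (0.983) and MAST4 (0.981). For IL36G they were SAT1 (0.982), ACSL1 (0.982) and CD44 (0.981), of which CD44 is the hyaluronan receptor. For IL18 the values were lower, with HMGN3 (0.889), PLAC8 (0.874) and GLMN (0.856).

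Other genes of the pathway were read from a list of 66, of which 57 were tested. With LPS 33 rose and 13 fell (median log2 change 0.66; 29 and 18 under equal totals). With DCVC 14 rose and 27 fell (median -0.16; 20 and 15 under equal totals). In DCVC_LPS against LPS 12 were higher and 27 lower (median -0.31; 25 and 19 under equal totals), so the direction of the balance depends on the scaling in both DCVC comparisons. Among all tested genes 37.8% rose and 40.6% fell with LPS, 27.5% and 32.2% with DCVC, and 33.3% were higher and 39.4% lower in DCVC_LPS than in LPS.

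Of the inflammasome genes, which process IL-1 beta and IL-18, 8 of 17 tested rose and 6 fell with LPS, 0 by limma (0 at an unadjusted p under 0.05, 0 by edgeR and 0 by DESeq2) rose and 12 fell with DCVC, and 1 was higher and 11 lower in DCVC_LPS than in LPS. Equal totals gave 8 and 7, 0 and 6, and 4 and 8. CASP1, the IL-1 beta converting enzyme, rose with LPS by 1.11 ± 0.16 (adjusted p = 1.06e-06) and was lower in DCVC_LPS than in LPS, at -2.09 ± 0.16 (adjusted p = 3.59e-11), with an interaction of -1.67 ± 0.23 (adjusted p = 2.57e-06). NLRP3, the sensor, had 1.57 ± 0.10 with LPS, -1.63 ± 0.10 with DCVC and -2.07 ± 0.10 in DCVC_LPS against LPS, each with an adjusted p of at most 1.69e-12. P2RX7, the ATP-gated channel that triggers IL-1 beta release, rose by 5.36 ± 0.19 with LPS (adjusted p = 2.94e-18) and stood at -2.77 ± 0.19 in DCVC_LPS against LPS (adjusted p = 3.25e-12). The adaptor PYCARD fell with LPS, at -2.98 ± 0.13 (adjusted p = 2.35e-16), and its interaction was positive, at 1.00 ± 0.19 (adjusted p = 0.000111). The pore former GSDMD had -0.11 ± 0.16, -0.23 ± 0.16 and -0.28 ± 0.16 in these comparisons, with adjusted p of 0.542, 0.227 and 0.118.

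Of 17 receptor-proximal signalling genes, 13 rose and 2 fell with LPS, 5 rose and 6 fell with DCVC, and 5 were higher and 7 lower in DCVC_LPS than in LPS. Equal totals gave 9 and 4, 10 and 3, and 10 and 6. MYD88, the adaptor that IL1R1 and IL1RAP recruit, rose by 2.00 ± 0.13 with LPS (adjusted p = 7.71e-13), had 0.23 ± 0.13 with LPS after DCVC (adjusted p = 0.147) and an interaction of -1.78 ± 0.19 (adjusted p = 6.28e-08). IRAK2, a kinase of the same complex, rose by 5.50 ± 0.16 without and 5.21 ± 0.16 after DCVC (adjusted p = 7.28e-20 and 6.96e-19). Of 8 brakes on the receptors, 5 rose and 2 fell with LPS, and 0 by limma (0 at an unadjusted p under 0.05, 0 by edgeR and 0 by DESeq2) were higher and 5 lower in DCVC_LPS than in LPS (2 and 3 under equal totals). IRAK3, an inactive kinase that restrains the complex, fell with LPS by 0.66 ± 0.24 (adjusted p = 0.0156). ADAM17, which sheds IL1R2 and other receptors, rose with LPS by 0.97 ± 0.14 (adjusted p = 1.49e-06) and stood at -1.03 ± 0.14 with DCVC (adjusted p = 1.64e-06).

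Of the 6 further ligands of the family, 3 were tested, and all 3 rose both with LPS and with DCVC by limma, while edgeR called 2 of them with LPS. The filter used the mean over all 24 libraries, so a ligand low in Control could be tested through the groups where it is high. That all 3 rose is thus partly set by the filter. IL33, an alarmin, rose by 4.85 ± 0.34 with LPS and 2.94 ± 0.34 with DCVC (adjusted p = 1.55e-12 and 6.85e-08), and DCVC_LPS against LPS was -0.47 ± 0.34 (adjusted p = 0.207). Its interaction was -3.41 ± 0.47 (adjusted p = 3.01e-06). IL36RN, the antagonist of the IL-36 receptor, rose by 3.84 ± 0.45 with LPS and 1.78 ± 0.45 with DCVC and was higher still with both, at 1.16 ± 0.45 against LPS (adjusted p = 3.07e-08, 0.00157 and 0.0251). The third was IL36B, and IL36RN and IL36B were named after their values were seen, with means of 21.4 and 10.9 normalized counts over the libraries. Both chains of the IL-18 receptor rose with LPS, IL18R1 by 6.96 ± 0.36 (adjusted p = 4.3e-15) and IL18RAP by 7.78 ± 0.29 (adjusted p = 8.64e-18). IL18RAP averaged 121 normalized counts over the libraries and changed by 7.27 with LPS after DCVC, so it was very low without LPS. It passed the filter only through the groups with LPS. Its rise is thus no separate support, and the size of that rise depends on the pseudocount. IL18R1 was lower in DCVC_LPS than in LPS, at -2.06 ± 0.36 (adjusted p = 1.43e-05), while IL18RAP stood at -0.52 ± 0.29 (adjusted p = 0.105).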

How the data were processed

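Poly-A RNA of 24 libraries was sequenced. The submitters' processing notes name hg38, STAR, featureCounts 1.6.1, DESeq2 1.24.0, R 3.6.0, FastQC 0.11.5 and MultiQC 0.9, with no roles. Annotation, strand setting and the handling of multiply mapped reads: not given in the sources used here. Values in the deposited file are a signal, namely reads divided by 1 factor per library by the authors. This was read from the values: within each library 100% of values above 0 were whole multiples of 1 read, within 0.1 read. The values are therefore not raw counts.

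Of 58381 entries, 19595 (33.56%, holding 1.01% of the signal) carry no gene name and were left out, and 51 symbols on several entries were summed. Genes with a mean of at least 10 were tested as log2(value + 1) in R 4.3.3, using limma 3.58.1 with trended empirical Bayes moderation, in 1 fit of 24 libraries and 4 group means with 20 residual degrees of freedom, Benjamini-Hochberg adjusted over 13900 genes. The pseudocount makes changes of low genes smaller. The script was tested on simulated data. edgeR 4.0.16 and DESeq2 1.42.0 were run on the recovered reads as alternatives, beside other pseudocounts, filters, scalings, letters and left-out libraries. The 9 genes, the pathway list, the markers, the ratios and the rules for named genes were chosen with earlier results of these data known. The rule names all 9 genes, the 3 genes of mean at least 50 most correlated with IL1B, IL1A, IL1RN, IL18, IL36G and IL1R1, and from each class of the pathway list up to 2 genes each way by adjusted p, with NLRP3, CASP1, PYCARD, GSDMD, MYD88, IRAK2, IRAK3 and ADAM17 always. Gene positions and exon lengths are from GENCODE 29 on GRCh38, promoters from RefSeq on GRCh38.p14.

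The titles give each group the letters A to F and do not say what they mark. Deviations from the group means correlated between libraries of the same letter in all 36 cases, from 0.13 to 0.54 (median 0.33). Of the 24 libraries, 18 correlated best with their own letter in the other groups, so the letters pair the libraries in part. Libraries whose letters are A/B, C/D or E/F resembled each other nearly as much (median 0.29, other letters -0.11). The main fit treats the 6 libraries of a group as separate. Counting intervals are 95%.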

Additional observations from a re-analysis of the deposited data

Results flagged for a closer look

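IL1B in Control F, at 5906 normalized counts, lay far below the other 5 Control libraries, of which the nearest held 15940.0. It was the 1 such gap among 36 sets of 6 libraries checked, and chance alone gives about 1 in 20.

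The change with LPS differed between cells with and without DCVC, by the interaction term of the limma fit, for 5 genes. All 5 differences were negative, beside 23.7% of all tested genes with a negative and 22.0% with a positive interaction. For IL18 the call was lost under equal totals (adjusted p = 0.1) and without single libraries. For IL36G it rests on a few reads without LPS and was lost within A/B (adjusted p = 0.57). The differences of log2 changes were -4.67 for IL1A (adjusted p = 2.24e-08), -2.81 for IL1RAP (adjusted p = 1.1e-11), -2.31 for IL36G (adjusted p = 0.000493), -0.85 for IL1RN (adjusted p = 0.00433) and -1.01 for IL18 (adjusted p = 0.0447).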

How the results depend on the processing

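Of the 45 tests of 9 genes in 5 comparisons, 27 kept their direction and their side of the threshold under every alternative run, at most 37 each, and none reversed a called direction (a test that passed in neither fit counts as kept, whatever its sign). IL18BP was the only gene lowered by LPS, and that count was 0 with letters C and D only and from 0 to 1 with single libraries left out. DCVC raised 2 genes, and 1 with letters A and B only, and it lowered 4. With letters E and F only it lowered 1, IL18, and none of those 4 passed. The count of genes higher in DCVC_LPS than in LPS was 1 and ran from 0 to 1 with single libraries left out. LPS after DCVC lowered 0 genes by limma, also 0 at an unadjusted p under 0.05 and 0 by edgeR and by DESeq2, and 1 under equal totals. The replicate block, a paired analysis by letter, gave 1 gene with a positive interaction against 0 without it (also 0 at an unadjusted p under 0.05, by edgeR and by DESeq2); beside it the block changed the calls of IL18BP with DCVC and of IL1R1 in the interaction, and no other call of the 45. With letters A to D only, chosen after seeing the data, 8 rose and 1 fell with LPS, 2 and 4 with DCVC, 1 and 7 in DCVC_LPS against LPS, 6 and 0 with LPS after DCVC, and 0 and 6 in the interaction. Over the 13900 genes tested, these letters gave 5085 and 5445 with LPS, 3649 and 4342 with DCVC, and 4585 and 5385 in DCVC_LPS against LPS. They gave 3843 and 4118 with LPS after DCVC, and 2985 positive and 3168 negative interactions. Under equal totals the pathway list had 15 genes lowered by DCVC (27 on the deposited scale), 25 higher in DCVC_LPS than in LPS (12), 20 lowered by LPS after DCVC (13), and 15 and 10 with a positive and negative interaction (8 and 16). Over all genes, equal totals gave 3118 raised by LPS against 5253, 6412 raised and 2790 lowered by DCVC against 3820 and 4478, 7578 higher and 3051 lower in DCVC_LPS than LPS against 4633 and 5478, 2263 and 7322 with LPS after DCVC against 4160 and 4475, and 4600 positive interactions against 3053. Letters E and F only gave 2294 genes raised by DCVC and 1281 positive and 1578 negative interactions (against 3297). With as many libraries in the fit, letters A and B only gave 3496, 2692 and 3234. Letters C and D only gave 3924, 3640 and 3495. The cause of these changes was not tested. IL36G and IL1A without LPS, and IL1R2 in every group, rest on few reads per library. IL1R2 has no value with the filter at a mean of 50.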
